A study of Mus musculus with 3 samples.

Results

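The 10 genes *Sparc*, *Sparcl1*, *Spp1*, *Tnc*, *Thbs1*, *Thbs2*, *Postn*, *Ctgf*, *Cyr61* and *Nov*, which encode matricellular proteins, were followed by symbol among the 22698 Ensembl genes of the RNA-seq tables of mouse melan-a cells. All 10 were found, each with a single row. The list was fixed by symbol, but it was selected on earlier results from the FPKM values of these same replicates, in which *Sparc* ranked among the highest genes and *Spp1* varied. Levels and ranks are therefore given as a description and carry no test. Melan-a is an immortalized line of mouse melanocytes on the C57BL/6J background. The labels give the cells as Ink4a-ARF-/-, derived from mice without that tumor suppressor locus. All 3 replicates, which are labelled 1, 3 and 4, were untreated cells kept in medium with 10% fetal bovine serum, 200 nM of the phorbol ester 12-O-tetradecanoylphorbol 13-acetate (an activator of protein kinase C) and 200 pM cholera toxin (which raises cyclic AMP). They form 1 group, so no comparison between conditions and no test between groups was possible. Nothing in the labels says whether the replicates came from separately thawed cultures, and the SD values below may therefore measure technical spread.

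Matricellular proteins are secreted into the extracellular matrix but do little to build it. They bind collagens, growth factors, proteases and cell surface receptors, above all integrins, and they modulate how strongly a cell adheres, spreads and migrates. SPARC, also called osteonectin, is a collagen-binding glycoprotein that loosens adhesion and is known from melanoma, where it is linked to invasion. Ordinary melanocytes sit on a basement membrane between keratinocytes, and NOV (CCN3) is known to help anchor them there.

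Levels are in FPKM, which divides the reads of a gene by its length and by the size of the library, here after TMM scaling (trimmed mean of M values) by the authors. The steps between low values, which correspond to single reads, put the scaled library sizes of replicates 1, 3 and 4 at 53900000, 47000000 and 66200000 reads. On a gene of 1 kb, 3 reads came to between 0.045 and 0.064 FPKM. The cells carried the transcripts of their lineage, since 7 of 7 melanocyte markers (*Dct*, *Tyr*, *Tyrp1*, *Pmel*, *Mlana*, *Mitf*, *Sox10*) stood above 10 FPKM, a level that 23.6% of all genes reached. Their summed values were 5711 to 6557 FPKM. The 8 fibroblast markers summed to between 1.71 and 2.05 FPKM, the 4 macrophage markers to between 0.79 and 1.61, the 4 keratinocyte markers to between 0.36 and 0.7 and the 3 endothelial markers to between 0.01 and 0.03. *Lum*, *Krt1* and *Ptprc* were listed at 0 in every replicate. Most of the macrophage sum came from *Cd68*, with 1.2, 0.76 and 1.6 FPKM in replicates 1, 3 and 4. The highest fibroblast marker was *Col1a1* (1.51, 1.77 and 1.33 FPKM) and the highest keratinocyte marker *Krt10* (0.51, 0.29 and 0.67 FPKM). *Cdkn2a*, the gene of the Ink4a-ARF locus, was listed at 19.24, 16.49 and 24.32 FPKM in replicates 1, 3 and 4. A value for the whole gene does not show which exons the reads came from, so it does not check the labelled deletion.

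The upstream sequence of 4 of the genes is shown because they are the 3 highest members (*Sparc*, *Cyr61*, *Spp1*) and the member of the highest relative spread above 1 FPKM (*Postn*). The sequences come from RefSeq on GRCm38.p6, run 5′ to 3′ on the strand of the gene and cover the 250 bases before the start. Capitals mark matches to a TATA box (TATAAA), the core of a TEAD site (GGAATG) or a TFAP2 site (GCCNNNGGC). The paper gives the TFAP2A consensus in a shorter form (GCCNNNGG), which was not searched, so matches to it are not marked.
Sparc, chr11:55420081-55420330, minus strand: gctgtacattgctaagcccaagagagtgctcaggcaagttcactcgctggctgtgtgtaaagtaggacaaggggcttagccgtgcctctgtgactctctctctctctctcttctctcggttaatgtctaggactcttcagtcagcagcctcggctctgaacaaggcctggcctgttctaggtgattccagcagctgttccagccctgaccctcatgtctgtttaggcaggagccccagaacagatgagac
Cyr61, chr3:145649986-145650235, minus strand: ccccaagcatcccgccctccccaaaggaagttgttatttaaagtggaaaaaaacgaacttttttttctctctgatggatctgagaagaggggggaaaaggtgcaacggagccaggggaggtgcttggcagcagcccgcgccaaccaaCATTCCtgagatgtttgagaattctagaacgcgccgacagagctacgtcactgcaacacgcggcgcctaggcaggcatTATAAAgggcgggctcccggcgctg
Spp1, chr5:104434861-104435110, plus strand: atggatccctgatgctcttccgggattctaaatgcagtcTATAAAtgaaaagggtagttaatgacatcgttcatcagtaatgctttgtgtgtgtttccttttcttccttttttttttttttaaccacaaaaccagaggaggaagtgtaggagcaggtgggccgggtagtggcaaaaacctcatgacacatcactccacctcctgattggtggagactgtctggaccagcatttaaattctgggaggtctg
Postn, chr3:54360857-54361106, plus strand: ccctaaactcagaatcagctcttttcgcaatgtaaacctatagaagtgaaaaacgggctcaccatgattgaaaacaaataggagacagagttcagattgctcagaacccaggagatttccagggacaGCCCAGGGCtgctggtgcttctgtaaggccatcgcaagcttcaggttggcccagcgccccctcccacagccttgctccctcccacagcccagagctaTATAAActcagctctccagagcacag

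Each of these sequences matched mm9, the build of the data, without a difference and at a single place. RefSeq held 9 such entries for 6 of the 10 members. *Sparcl1*, *Thbs1*, *Ctgf* and *Nov* were not among them. *Spp1* and *Postn* each had a further entry with another start, not shown here, in which none of the motifs searched was found. Positions are counted back from the start, with -1 as the base just before it. *Cyr61* had a TATA box at -25 to -20 and *Postn* at -26 to -21, the usual distance, while the TATAAA of *Spp1* lay at positions -211 to -206. TATAAA occurred on either strand in 12.4% of the 32851 promoters of the table. *Cyr61* held a TEAD core, read on the opposite strand, at -103 to -98 (12.6% of all promoters), and *Postn* a TFAP2 site at -123 to -115 (13.7%). None of the motifs searched was found in this window of *Sparc*, which precedes the most upstream of its annotated starts, and 3 of its 6 annotated transcripts start 180 to 182 bases further downstream. AP-1 (TGANTCA, 6.75% of promoters), the CArG box of SRF (1.47%), CATGTG (12.3%) and CACGTG (6.02%), the last 2 being sites that MITF can bind, were found in none of the 9 entries. All motifs were searched on both strands. A match of letters is a description of the sequence, not evidence of binding.

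The members spanned from *Sparc*, among the highest transcripts of these cells, to *Sparcl1*, with few reads in every replicate. *Sparc* stood at 3002 FPKM, *Cyr61*, *Spp1*, *Thbs1*, *Postn* and *Thbs2* between 16 and 128 FPKM, *Ctgf* just above 1 FPKM, and *Tnc*, *Nov* and *Sparcl1* below it. In all, 7 of 10 members had a mean of at least 1 FPKM and 6 of at least 10 FPKM. Of all 22698 genes, 10237 (45.1%) reached 1 FPKM and 5350 (23.6%) reached 10 FPKM. The median of the members' means was 17.6 FPKM, against 0.277 FPKM over all genes. In bulk RNA, fewer cells that express a gene and less of its RNA per cell cannot be told apart.

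**Figure D1:**
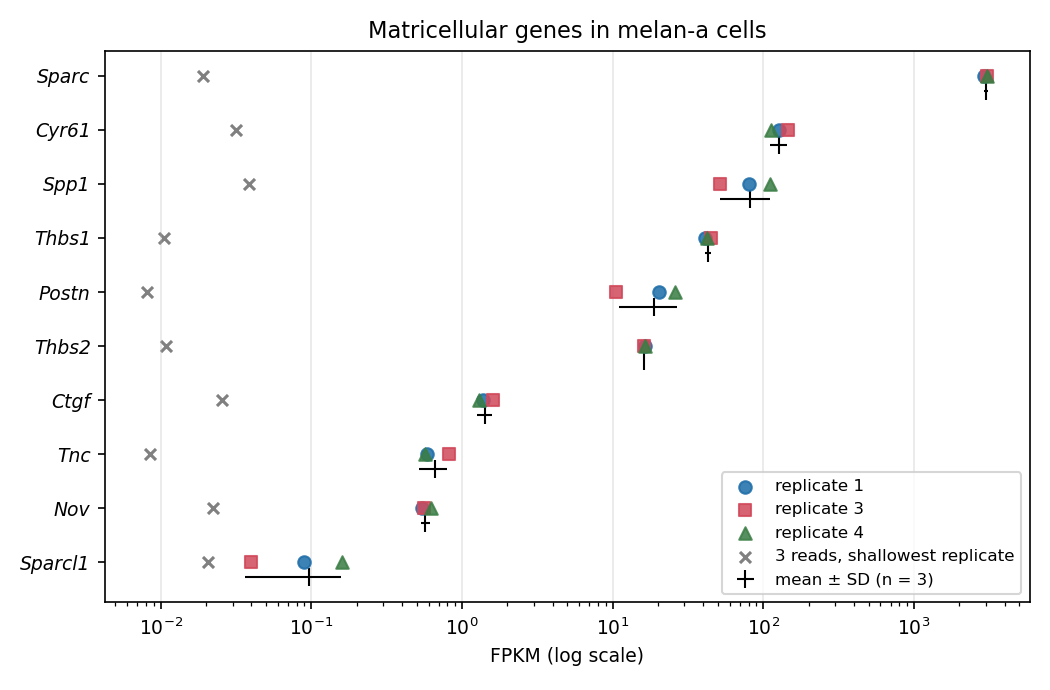
FPKM of each matricellular gene on a log scale, with 1 symbol per replicate, the mean ± SD under it (n = 3) and a cross at the value that 3 reads give in the shallowest replicate. *Sparc* lies between 2898.99 and 3062.57 FPKM, and *Sparcl1* comes closest to the level of 3 reads.

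*Sparc* (ENSMUSG00000018593) lies on the minus strand at chr11:55208002-55233582 of mm9. Replicates 1, 3 and 4 gave 2898.99, 3044.9 and 3062.57 FPKM, with a mean of 3002 ± 89.8 FPKM (SD, n = 3) from an estimated 482000 to 683000 reads per replicate. It ranked 8 of all 22698 genes by mean FPKM, with ranks 8, 9 and 7 in replicates 1, 3 and 4, and 3 among genes encoded in the nucleus. It alone took up 0.8% of all FPKM in the tables. Within the list, *Sparc* made up 91.2% ± 0.55 (SD, n = 3) of the summed FPKM of the 10 members, which came to 3187, 3317 and 3373 FPKM.

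The genes of most similar level to *Sparc*, judged by the largest log2 ratio in any of the 3 replicates, were *Tyrp1* (0.2), *Ftl1* (0.34) and *Eef1a1* (0.35), which encode a melanin synthesis enzyme, a ferritin chain and a translation elongation factor. *Tyrp1* had 3331.02, 2647.8 and 3452.01 FPKM. It was higher than *Sparc* in replicates 1 and 4 and lower in replicate 3, and the ranges overlapped, so the matricellular gene and the pigment gene could not be placed in an order. The spread of *Sparc* was small as deposited. Its coefficient of variation (SD as a percent of the mean) was 2.99%, and 7.49% of the 10006 genes at or above 1 FPKM in every replicate with a known transcript sequence varied less. This depended on the scaling, since the coefficient was 6.16% with each replicate rescaled to the same sum and 6.09% with the GC trend removed (described further on), where 40.9% of the genes varied less.

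*Sparcl1*, which encodes the related protein hevin, was at the other end. It lies on the minus strand at chr5:104508130-104543107. Its values were 0.09, 0.04 and 0.16 FPKM in replicates 1, 3 and 4, from about 15, 6 and 33 reads, with 95% exact Poisson intervals of 0.05 to 0.147, 0.015 to 0.0892 and 0.11 to 0.225 FPKM that cover counting error only. All 3 values exceeded the 0.0146 to 0.0205 FPKM that 3 reads give on this gene, and the interval of replicate 3 did not overlap that of replicate 4. On the opposite strand, exons of *Gm16990* cover 6.5% of the exon bases of *Sparcl1*, and without a stated strand setting in the counting, reads of both genes cannot be told apart there. *Sparc* exceeded *Sparcl1* by ratios of 32211, 76122 and 19141 in replicates 1, 3 and 4, which are uncertain because so few reads of *Sparcl1* stand behind them.

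The CCN proteins, small secreted proteins that bind integrins and heparan sulfate, were led by *Cyr61* (CCN1), an immediate early gene. *Cyr61* (chr3:145309935-145312949, minus strand) gave 126.6, 145.2 and 112.01 FPKM in replicates 1, 3 and 4 and averaged 128 ± 16.6, SD over 3 replicates, at rank 427. *Ctgf* (CCN2, chr10:24315248-24318489, plus strand), which encodes the connective tissue growth factor and is often induced together with *Cyr61*, had 1.37, 1.6 and 1.29 FPKM, a mean of 1.42 ± 0.161 at rank 9850. The pair was thus far apart, with ratios of 92.4, 90.7 and 86.8 in the 3 replicates. Exons of *Gm15270* on the opposite strand cover 22.9% of the exon bases of *Ctgf*, and reads of the 2 genes cannot be told apart there without a stated strand setting. *Nov* (CCN3, chr15:54577257-54585594, plus strand) had 0.54, 0.56 and 0.62 FPKM, a mean of 0.573 ± 0.0416, from an estimated 84, 76 and 118 reads. *Nov* was therefore measured above the level of 3 reads in each replicate but under 1 FPKM, at rank 10753.

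*Cyr61* and *Ctgf* were both listed highest in replicate 3 and lowest in replicate 4, and so was *Tnc*. The Poisson intervals of *Ctgf* in replicates 1, 3 and 4 overlapped (1.18 to 1.58, 1.38 to 1.84 and 1.12 to 1.48 FPKM). Counting error alone therefore leaves the order of *Ctgf* unresolved. The median log2 ratio of replicate 3 to 4 was 0.17 over genes of 52 to 54% GC, the range of *Cyr61*. It was 0.05 over genes of 50 to 52% GC, the range of *Ctgf*. Whether *Cyr61* and *Ctgf* moved together was not tested. The genes closest to *Cyr61* in level were *Eif4ebp1*, *S100a6* and *Mfge8*, each within a log2 ratio of 0.04 in every replicate.

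Thrombospondins are large trimeric or pentameric glycoproteins, and *Thbs1* encodes the form known to activate latent TGF-beta and to bind CD47 and CD36. *Thbs1* (chr2:117937612-117952869, plus strand) gave 41.38, 45.14 and 42.09 FPKM and averaged 42.9 ± 2 (SD, n = 3), which placed it at rank 1623. *Thbs2*, its closest relative (chr17:14802507-14831269, minus strand), had 16.29, 16.07 and 16.37 FPKM, a mean of 16.2 ± 0.155 at rank 3831. *Thbs1* exceeded *Thbs2* in every replicate, by a ratio of 2.64 between the means, and the 2 genes belonged to the steadiest members with coefficients of variation of 4.66% and 0.956%.

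*Spp1* encodes osteopontin, a phosphorylated glycoprotein that binds integrins and CD44. It lies on the plus strand at chr5:104864137-104870069. Its values were 81.03, 51.68 and 111.47 FPKM in replicates 1, 3 and 4, averaging 81.4 ± 29.9 (SD, n = 3). Replicate 4 was thus 2.16 times replicate 3, and the rank moved from 463 in replicate 4 to 1397 in replicate 3. The genes nearest to *Spp1* in level were *Gm4540* (0.32), *Fkbp3* (0.32) and *Cox7b* (0.33, each the largest log2 ratio in any replicate). They were picked for following *Spp1* in these replicates, and no gene of the tables came closer.

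*Postn* encodes periostin, a fasciclin-domain protein that binds collagen and promotes its cross-linking. It lies on the plus strand at chr3:54165031-54194961. The replicates gave 20.21, 10.56 and 26.03 FPKM and averaged 18.9 ± 7.81 (SD, n = 3), which placed it at rank 3390. The order of the replicates was the same as for *Spp1*, with replicate 4 at 2.46 times replicate 3. *Tnc* encodes tenascin-C, a hexameric protein that counteracts adhesion to fibronectin. It lies on the minus strand at chr4:63620819-63681760 and had 0.59, 0.82 and 0.57 FPKM, a mean of 0.66 ± 0.139, from an estimated 239, 289 and 283 reads. It was thus measured in all replicates at a low level, highest in replicate 3. RefSeq places the start of *Tnc* well upstream of the annotation used here, and bases between the 2 starts were not part of the length used here.

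Ordered by mean FPKM, the members ran *Sparc*, *Cyr61*, *Spp1*, *Thbs1*, *Postn*, *Thbs2*, *Ctgf*, *Tnc*, *Nov* and *Sparcl1*. Of the 9 pairs of neighbours in this order, 7 had ranges over the replicates that did not overlap. *Postn* and *Thbs2* overlapped, with *Postn* higher in 2 of 3 replicates and lower in replicate 3 (ratio 0.657). Without replicate 4 the mean of *Postn*, 15.4 FPKM, was below that of *Thbs2*, 16.2 FPKM. *Tnc* and *Nov* overlapped as well, with *Tnc* lower in replicate 4 (ratio 0.919) and both at a mean of 0.58 FPKM without replicate 3. *Cyr61* and *Spp1* were separated by little, since the lowest *Cyr61* value of 112.01 FPKM and the highest *Spp1* value of 111.47 FPKM both came from replicate 4, where their counting intervals (110 to 114 and 109 to 113 FPKM) overlapped. The largest steps in the order were those from *Sparc* to *Cyr61* (ratio of means 23.5) and from *Thbs2* to *Ctgf* (11.4). Levels of different genes depend on the length they are divided by. With the longest transcript in place of the joined exons, *Postn* came to 34.06 FPKM, and *Sparc* to 4395 FPKM. The log2 ratio of the mean of *Thbs1* to that of *Postn* then fell from 1.18 to 0.39. That of *Postn* to *Thbs2* rose from 0.22 to 1.07. Overlap of the ranges was judged on the values as deposited only, so the separation of *Thbs1* and *Postn* depends on the length.

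Of 20 other genes of the same families, 1 had a mean of at least 1 FPKM (5%, against 45.1% of all genes), and 8 were listed at 0 in every replicate (40%, against 31.4% of all genes). The one was *Wisp1* (CCN4), a WNT-induced CCN gene, with 14.56, 13.62 and 16.28 FPKM, averaging 14.8 ± 1.35 (SD, n = 3). *Wisp1* therefore ranked second among the CCN genes, above *Ctgf* and *Nov*, at a level whose range overlapped that of *Thbs2*. *Thbs3* had a mean of 0.287 FPKM and *Tnn* of 0.143 FPKM, and no other gene of this list exceeded 0.07 FPKM in any replicate. The genes listed at 0 were *Thbs4*, *Tnr*, *Tnxb*, *Wisp3*, *Spock3* and the bone and tooth matrix genes *Ibsp*, *Mepe* and *Dspp*. *Sparc* thus led the SPARC-related genes, *Spp1* the bone sialoprotein family (SIBLING), *Postn* was present with *Tgfbi* at no more than 0.01 FPKM, and *Tnc* was the highest tenascin although under 1 FPKM.

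**Figure D2:**
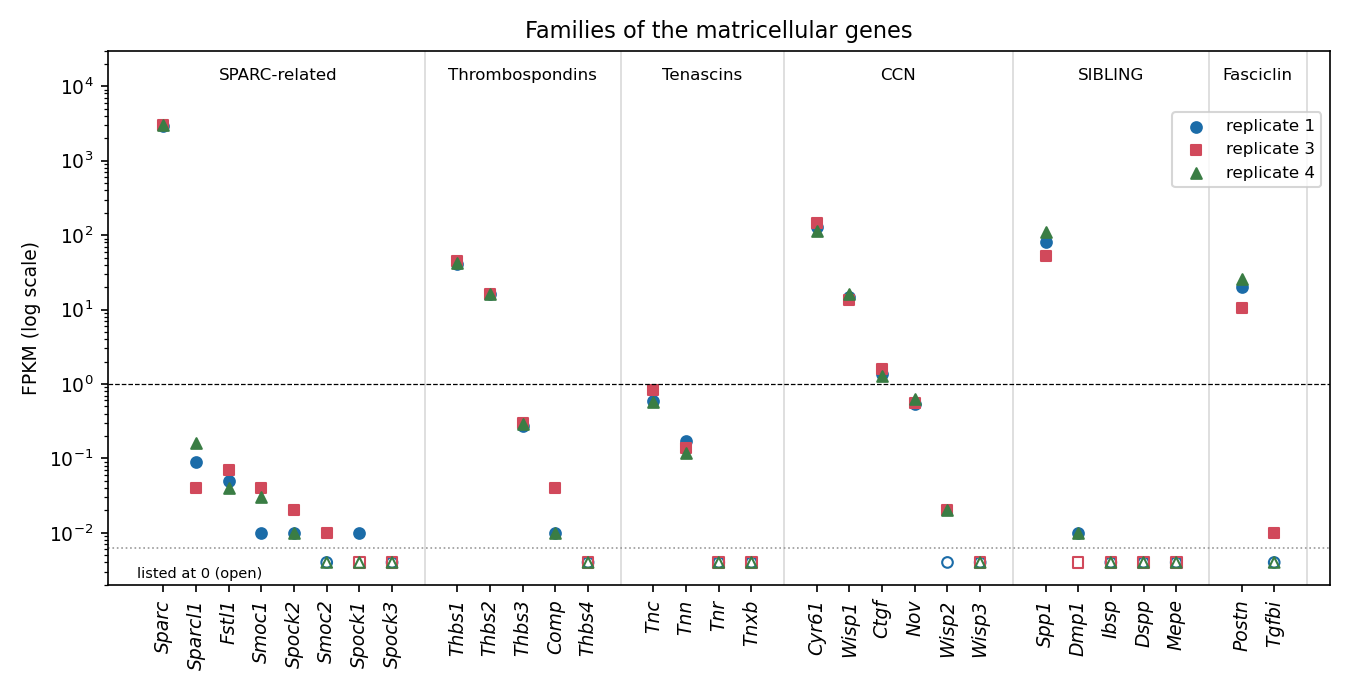
FPKM on a log scale of the 10 matricellular genes and 20 other genes of their families, with 1 symbol per replicate, a dashed line at 1 FPKM and open symbols for values listed at 0. Each family holds 1 to 3 genes above the dashed line or, for the tenascins, none.

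Matricellular proteins act through receptors, and 13 of 19 receptor genes reached 1 FPKM (68.4%, against 45.1% of all genes), and 10 reached 10 FPKM (52.6%, against 23.6%). *Itgb1*, the common beta subunit of the collagen, laminin and fibronectin receptors, led with 449.09, 414.02 and 495.31 FPKM. *Cd44*, the hyaluronan receptor that osteopontin also binds, had 126.59, 121.26 and 137.4 FPKM and exceeded *Spp1* in every replicate. Of the integrin chains that recognize the RGD motif of osteopontin and other matricellular proteins, *Itgav* had a mean of 32.7 ± 3.53, *Itga8* 32.1 ± 3.34, *Itga5* 31.9 ± 7.27, *Itgb5* 55.2 ± 12.9 and *Itgb3* 27.8 ± 2.68 FPKM (SD, n = 3), while *Itgb8* had 0.287 and *Itgb6* 0.01 FPKM in replicate 3 alone. The laminin receptor chain *Itga3* stood at 43.5 ± 11.2 FPKM, the alpha-4 chain *Itga4* at 30.7 ± 5.84 and the alpha-9 chain *Itga9*, a tenascin-C receptor, at 3.09 ± 0.419. The partners of thrombospondin-1 differed, with *Cd47* at 4.39 ± 0.623 FPKM and *Cd36* listed at 0 in every replicate. *Sdc4*, a heparan sulfate proteoglycan, had 59.7 ± 2.73 FPKM and *Lrp1*, an endocytic receptor of thrombospondins, 2.92 ± 0.558. *Stab1*, a scavenger receptor that clears SPARC in macrophages, did not exceed 0.02 FPKM, and the leukocyte integrin genes *Itgb2* and *Itgam* did not exceed 0.09 FPKM.

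The matrix that these proteins bind was present in part. *Serpinh1*, which encodes the collagen chaperone HSP47, had 972.49, 1105.06 and 814.39 FPKM (rank 27), and *Fn1*, which encodes fibronectin, 724.93, 663.08 and 695.47 FPKM (rank 51). The basement membrane collagens *Col4a2* and *Col4a1* had means of 368 ± 97.2 and 243 ± 31.9 FPKM, and *Col5a1* 74.7 ± 17.4. The collagen chains *Col1a1*, *Col3a1* and *Col1a2* were far lower than *Col4a2*, *Col4a1* and *Col5a1*. *Col1a1* had 1.51, 1.77 and 1.33 FPKM, *Col3a1* no more than 0.13 and *Col1a2* no more than 0.05. *Sparc* thus stood high in cells in which *Col1a1*, *Col1a2* and *Col3a1*, 3 of the fibroblast markers, were at 1.77 FPKM or less in every replicate.

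Of 10 genes for enzymes that modify or cleave matricellular proteins, 7 reached 1 FPKM (70%, against 45.1% of all genes). *Adamts1*, a protease that cleaves thrombospondins, had a mean of 217 ± 4.27 FPKM and the membrane protease gene *Mmp14* 144 ± 11.6. *Pofut2* and *B3galtl*, which attach a fucose and glucose to thrombospondin repeats, had 67.7 ± 9.33 and 20.5 ± 1.01. *Fam20c*, the kinase of osteopontin and other secreted proteins, had 16.9 ± 4.58, *Adamts4*, which cleaves hevin, 4.31 ± 0.278, and *Tgm2*, a transglutaminase, 3.61 ± 0.856. *Mmp3* and *Mmp7*, which cleave osteopontin, were listed at 0 in every replicate, and *Mmp9* did not exceed 0.06 FPKM.

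*Cyr61* and *Ctgf* are textbook targets of YAP and TAZ, coactivators that bind TEAD factors, and of SRF with its MRTF coactivators. Of 13 genes for these factors and for other targets, 12 reached 1 FPKM (92.3%, against 45.1% of all genes). *Wwtr1*, which encodes TAZ, had 58.6 ± 0.255 FPKM, *Yap1* 30.3 ± 4.24, and *Tead1*, *Tead2*, *Tead4* and *Tead3* had 24.1, 15.2, 9.14 and 5.24. *Srf* had 22.2 ± 5.96 FPKM, with the MRTF genes *Mkl1* and *Mkl2* at 19.7 and 7.84. The target genes were uneven, as *Cyr61* and *Ctgf* were. *Amotl2* stood at 37.3 FPKM, *Lats2* at 13.9 and *Ajuba* (listed as *Jub*) at 13.8, whereas *Ankrd1* was listed at 0 in replicates 1 and 3 and at 0.01 in replicate 4.

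**Figure D3:**
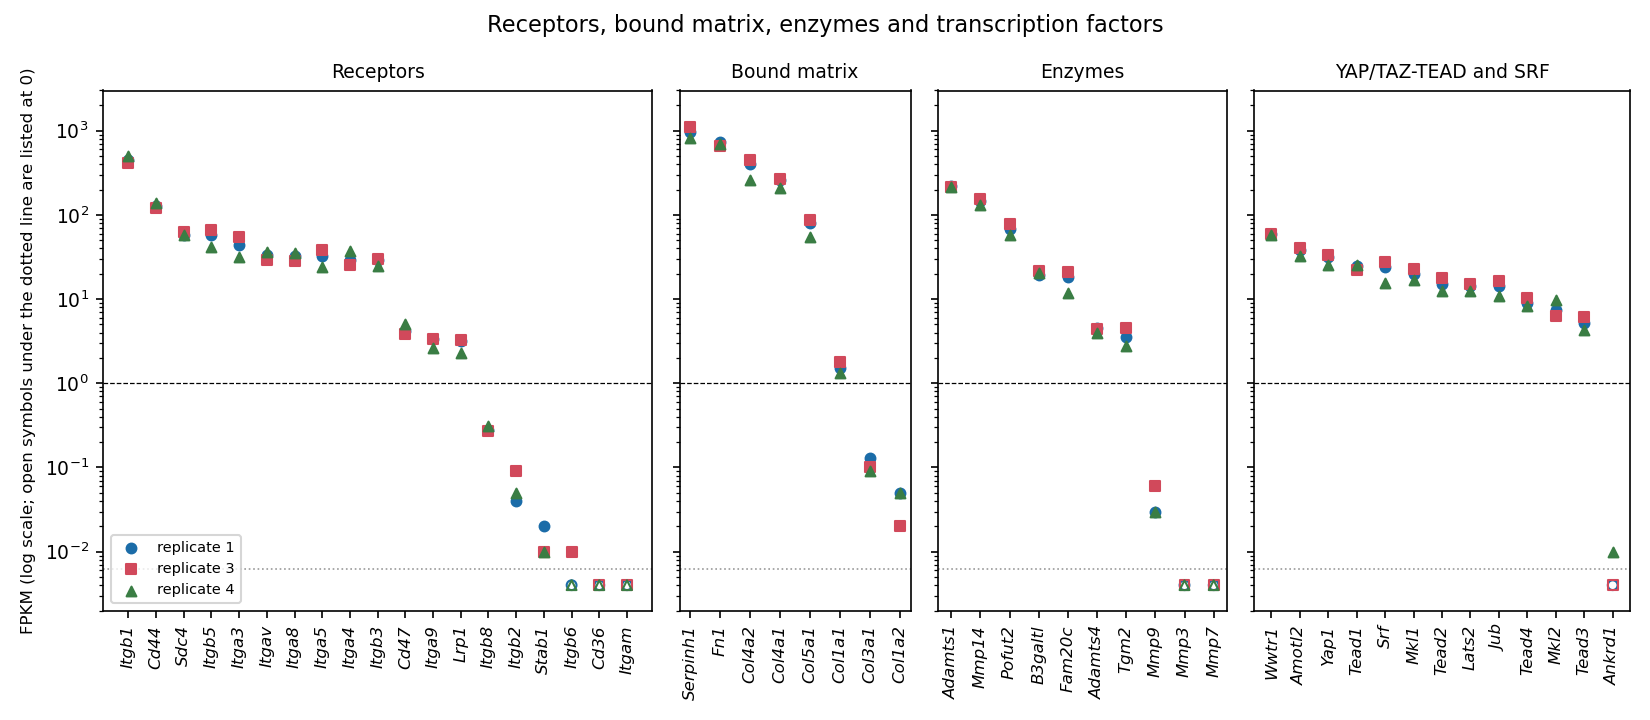
FPKM on a log scale of genes for receptors, bound matrix, modifying enzymes and YAP/TAZ-TEAD and SRF factors and targets, with 1 symbol per replicate, a dashed line at 1 FPKM and open symbols for values listed at 0. *Itgb1*, *Serpinh1*, *Adamts1* and *Wwtr1* are the highest genes of the 4 panels.

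The spread between replicates split the members. *Spp1* and *Postn* had coefficients of variation of 36.7% and 41.3%, and 97.5% and 98.4% of the 10006 genes varied less. *Thbs2*, *Sparc* and *Thbs1* had 0.956%, 2.99% and 4.66%, against a median of 11.4% over those genes, and *Ctgf* and *Cyr61* lay close to the median with 11.3% and 13%. For *Spp1* and *Postn* the coefficients were lowest without replicate 3, at 22.4% and 17.8%. They were 31.3% and 44.4% without replicate 4, and 51.8% and 59.8% without replicate 1. The spread of *Spp1* thus did not rest on replicate 3 alone. For *Sparcl1* the coefficient was 62.4% with and 39.6% without replicate 3, at 6 to 33 reads. With only 3 values the coefficients of the steadier members also hung on single replicates. Without replicate 3 they were 1.2% for *Thbs1*, 0.346% for *Thbs2*, 4.25% for *Ctgf* and 2.44% for *Tnc* (21% with it), without replicate 4 the coefficient was 2.57% for *Nov* (7.26% with it), and without replicate 1 it was 0.409% for *Sparc*.

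The ratio of replicates 3 and 4 moved with the GC content of the transcript across all genes, and *Spp1* (43.3% GC) and *Postn* (44.1%) are the members of lowest GC content. The log2 ratio of replicate 3 to replicate 4 was -1.11 for *Spp1*, while the 758 genes of 42 to 44% GC had a median of -0.45 and a 5th percentile of -1.18. For *Postn* it was -1.3, while the 935 genes of 44 to 46% GC had a median of -0.33 and a 5th percentile of -0.98. *Postn* thus fell below the range of most genes of its GC content and *Spp1* stood near its lower end. *Nov* (44.8% GC) had -0.15 and did not follow them. *Cyr61* (52.8% GC) had 0.37 and *Sparc* (52.5%) had -0.01, with a median of 0.17 for the 1113 genes of 52 to 54% GC. *Ctgf* (51.7%) had 0.31, while the 1068 genes of 50 to 52% GC had a median of 0.05 and a 95th percentile of 0.41.

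**Figure D4:**
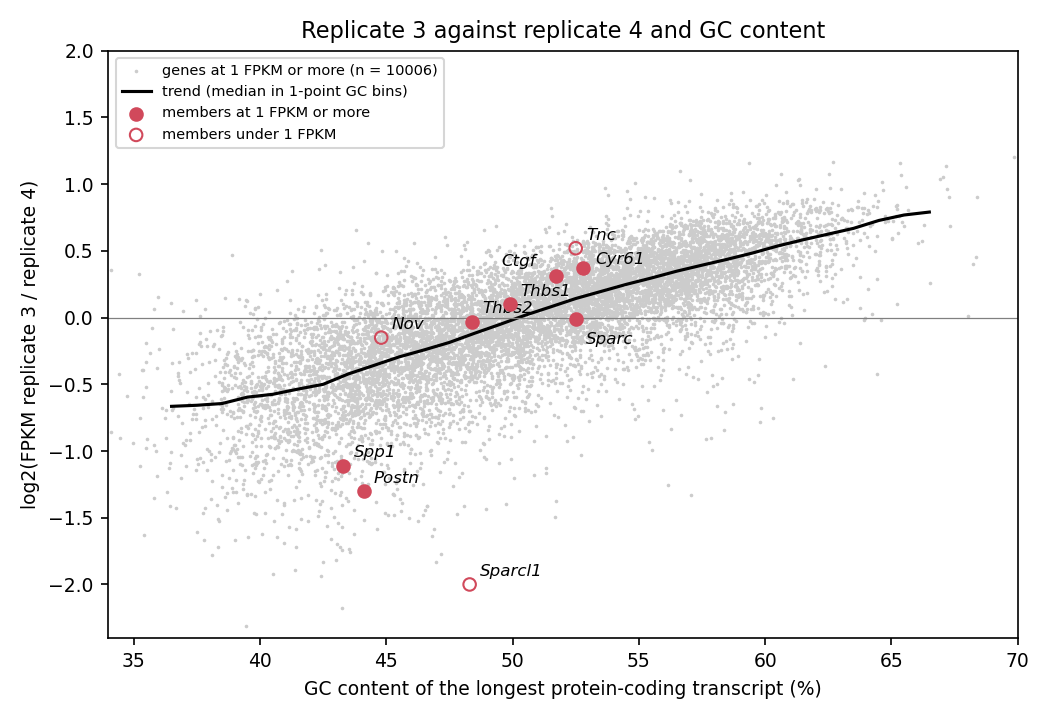
Log2 ratio of FPKM in replicate 3 to replicate 4 against the GC content of the longest protein-coding transcript, for 10006 genes (grey), their running median (line) and the members (red, open under 1 FPKM). *Spp1*, *Postn*, *Sparcl1* and, by less, *Sparc* lie below the line.

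When the trend with GC content was removed from each replicate, the coefficient of variation fell to 22.6% for *Spp1* and to 30.5% for *Postn*, against a median of 7.19% over all 10006 genes. The log2 ratio of replicate 3 to 4 was then -0.67 and -0.92, so the order of the replicates stayed as it was. *Cyr61* came to 7.59% and *Ctgf* to 8.11%. For *Sparc*, *Thbs1*, *Thbs2* and *Nov* the coefficients were larger after the step than before, at 6.09%, 5.27%, 3.31% and 8.66%. The mean levels of all members moved by less than the SD between replicates. The trend was built from deviations from each gene's own mean, so the step could hardly move these means.

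**Figure D5:**
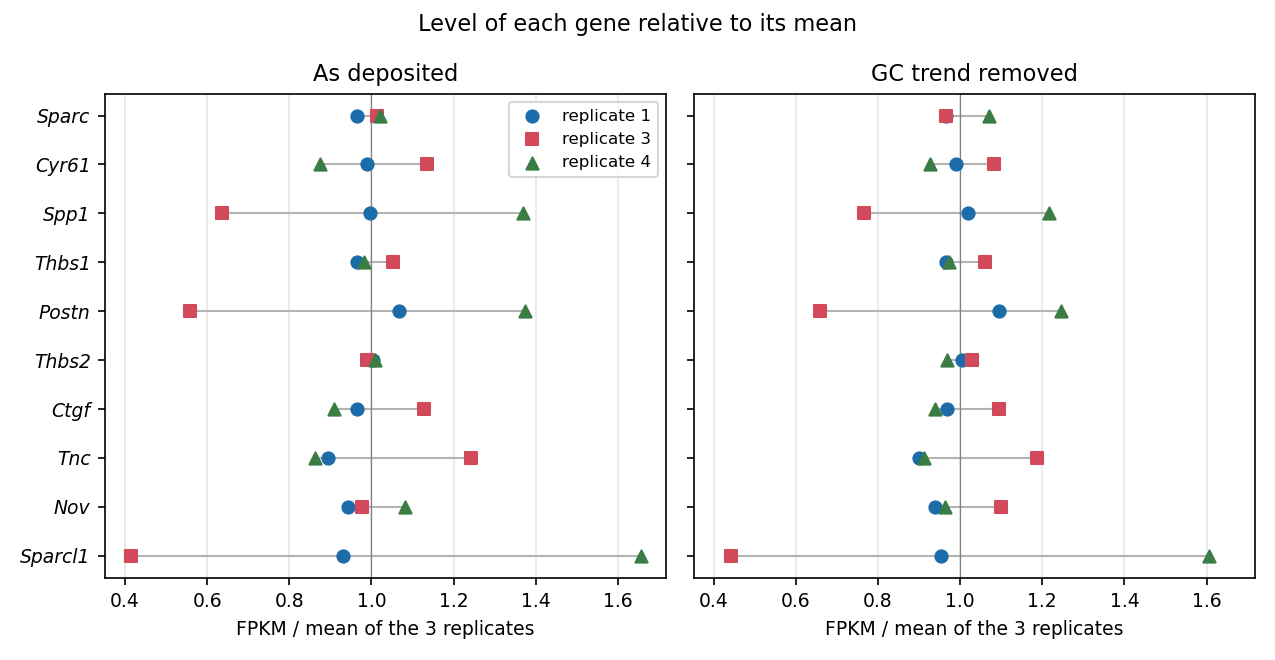
FPKM of each matricellular gene relative to its mean over the 3 replicates (x axis), as deposited on the left and with the GC trend removed on the right, with a bar over the range. *Spp1* and *Postn* stay lowest in replicate 3 and highest in replicate 4 on both sides, while the coefficient of variation of *Sparc* is 2.99% on the left and 6.09% on the right.

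The same dependence was seen in the other lists. Of the 46 genes of the members, relatives, receptors, matrix, enzymes and factors at or above 1 FPKM in every replicate, 21 had a GC content of 54% or more, and all 21 were higher in replicate 3 than in replicate 4. Of the 12 below 47%, 10 were higher in replicate 4, among them *Itgb1*, *Cd44* and *Wisp1*. With the GC trend removed, *Wisp1* varied by 1.25% in place of 9.1%. How much of the remaining spread of *Spp1* and *Postn* moved with GC content was not tested.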

How the data were processed

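RNA from 3 replicates of untreated melan-a cells was sequenced with a stranded mRNA kit in 3 lanes each. According to the paper's methods and the submitters' processing notes (CASAVA 1.8.2, STAR 2.3.0e, HTSeq 0.5.3p3 and edgeR), the authors trimmed the 10 5′-most bases, aligned reads to mm9, removed rRNA reads and counted on Ensembl release 67. The deposited FPKM values carry 2 decimals and the TMM scaling of the authors. How counts became FPKM, and the strand setting, are not given in the sources used here. FPKM are not counts, so no count test was applied.

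Symbols, positions (1-based, mm9) and lengths came from an annotation of Ensembl release 65, which lacks 374 of the 22698 genes. Library sizes were the values at which low FPKM of single-transcript genes under 600 bases gave whole reads (mean distance from a whole number 0.053 to 0.078 reads, against 0.26 to 0.274 at the median of all sizes tried). For genes of several transcripts under 800 bases, the distance was 0.103 to 0.145 reads with joined exons and 0.202 to 0.252 with the longest transcript, so joined exons were used. Reads of a member are estimates, and 3 reads were taken as the floor. Intervals are 95% exact Poisson intervals and cover counting error only. The GC trend was the median deviation from the gene's mean log2 FPKM in bins of 1 percentage point of GC, smoothed over 3 bins, from genes of at least 1 FPKM in every replicate.

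Members, lists, motifs and alternatives were chosen with earlier results of these data known. The named genes were the members, genes of the lists with a mean of at least 1 FPKM or listed at 0, and the 3 genes of most similar level to each of the 3 highest members. Genes with lower values were named after their values were seen, as were the motifs. Alternatives were each replicate left out, the median, rescaling to a sum of 1000000, other sets of genes for ranks, the longest transcript, removal of the GC trend, a threshold of 0.5 FPKM and pseudocounts of 1 and 0.1. The library size and GC steps were run on simulated data with planted sizes and GC slopes. The limit set for a recovered slope was wider than the planted slopes, so that check could not detect a missed slope. Python 3.11.15, numpy 2.4.6, pandas 2.3.3, scipy 1.17.1 and matplotlib 3.10.9 were used. Microarrays and ChIP-seq were not analysed here.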

Additional observations from a re-analysis of the deposited data

How the results depend on the processing

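No paired analysis was possible because the 3 replicates form 1 group. The number of members at or above 1 FPKM was 7 with each replicate left out, with the median and with the longest transcript. It was 9 after rescaling and 9 at the threshold of 0.5 FPKM. A limit of 1.5 times was set for counts, which no rise from 7 of 10 members can pass. The counts of the 5 lists did not change under the alternatives tried for them. The share of *Sparc* stayed within its spread except with the longest transcript. With the length of the longest transcript, the share of *Sparc* in the summed FPKM of the members was 93.3%, since its joined exons are longer than its longest transcript. The rank of *Sparc* lay between 7 and 10 with each replicate left out, and was 3 among nuclear genes, a set chosen after seeing the data, because genes of the mitochondrial genome are then not ranked. The order of the members changed for 1 pair whose ranges overlap, *Postn* and *Thbs2*, with a log2 ratio of 0.22 in all replicates and -0.07 without replicate 4, and *Tnc* and *Nov* were equal without replicate 3. Of 302 values recomputed, 267 moved by less than the spread between replicates (counts by less than 1.5 times) and 35 by more, among them 13 after rescaling, which changes the unit. Leaving out 1 replicate or taking the median cannot move a mean of 3 values by more than their SD. Removing the GC trend hardly moves a mean by its construction. The 267 therefore include mean levels whose outcome was fixed in advance, and they do not measure robustness. The alternatives for the lists were added after seeing the data. Values are rounded to 0.01 FPKM, which limits *Sparcl1* and every gene listed at 0.01 or 0.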
